A study of Homo sapiens with 3 samples.

Results

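The mitochondrial SLC25 carriers were taken as every row of the ribosome profiling (Ribo-seq) table whose gene symbol is SLC25A followed by a number, a rule that uses no measured value. The rule found 49 rows, which are 48 genes, among 63241 genes in all. SLC25A6 has 2 rows because it lies in the pseudoautosomal region shared by the X and Y chromosomes, and it is counted here as 1 gene. Of the 48 genes, 42 had enough footprints to be tested. The cells were HEK293T, a human embryonic kidney line in which the SV40 large T antigen binds the endogenous p53, and each group carried a p53 construct, either wild-type (WT) or a mutant with the G245S or R273H change in the DNA-binding domain. The study's methods describe puromycin-selected stable lines made with lentivirus, while the GEO labels also speak of transient transfection and name the wild-type construct in the treatment field of both mutants, so groups follow the sample titles. Footprints came from 3 dishes of 10 cm per group, given cycloheximide for 2 min before lysis; the lysate was treated for 30 min with 3 U of micrococcal nuclease for each μg of RNA, and monosomes were collected. The 3 dishes of a group were pooled at reverse transcription, so a group and its pool cannot be told apart, and each group is 1 cell population rather than several independent lines.

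SLC25 carriers are proteins with several membrane-spanning helices, mostly in the inner mitochondrial membrane, that move nucleotides, phosphate, carboxylates, amino acids, cofactors and iron between cytosol and matrix. They are encoded in the nucleus, made on cytosolic ribosomes and inserted through the TOM complex, small TIM chaperones and the TIM22 complex. ADP/ATP exchange and phosphate uptake feed oxidative phosphorylation, and the aspartate-glutamate and oxoglutarate carriers take part in the malate-aspartate shuttle. Footprint counts depend on both the amount of an mRNA and the ribosomes on it, and these cannot be told apart here, nor can fewer cells with a transcript and less RNA per cell.

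The 9 libraries held 18.7 to 24.6 M counts, and the SLC25 rows took 0.274% to 0.285% of them. As a check of the constructs, footprints of MDM2 and CDKN1A, classic p53 target genes, fell from means of 860.3 and 61.1 CPM (counts scaled to a common library total) in WT to 76.8 and 16.1 CPM in G245S and 76.7 and 13.9 CPM in R273H. PTPRC (blood), PECAM1 (endothelium), COL1A2 (fibroblast) and KRT19 (epithelial) were at or below 0.163 CPM in every library. PAX8, a kidney marker, reached only 0.102 CPM. KRT18, KRT8 and the fibroblast collagen gene COL1A1 were detected in all libraries (lowest values 108, 32.4 and 24.98 CPM), and EPCAM, CDH1, PAX2, LHX1 and DCN lay between 0.108 and 8.58 CPM. Among the markers that could be tested, KRT8, LHX1 and PAX2 rose and COL1A1 fell in R273H, and LHX1 rose and COL1A1 fell in G245S. The summed level of the 3 kidney markers was 8.13 to 10.8 CPM in the WT dishes, 12.2 to 13.1 CPM in G245S and 12.9 to 13.3 CPM in R273H, and that of the 3 fibroblast markers was 31.1 to 34.2, 25.4 to 30.0 and 27.0 to 29.3 CPM. The part of these markers in the results on the carriers was not tested.

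The family spanned a wide range of footprint levels. Levels between genes are given as CPM per kb of coding sequence, the mean ± SD of 3 dishes. In WT cells the ADP/ATP carrier SLC25A5 (ANT2) stood highest at 966 ± 7.66, followed by the phosphate carrier SLC25A3 at 436 ± 11.7 and a further ADP/ATP carrier, SLC25A6 (ANT3, both rows summed), at 327 ± 3.38. These 3 genes held 62.2% of the summed level of the 42 tested genes, and SLC25A5 alone held 34.7%. The third ADP/ATP carrier measured, SLC25A4 (ANT1), which is the main form in heart and skeletal muscle, reached 59.95 ± 1.44, behind the peroxisomal carrier SLC25A17 (123 ± 4.85), the oxoglutarate carrier SLC25A11 (93.4 ± 3.23), the citrate carrier SLC25A1 (91.6 ± 4.15) and the aspartate-glutamate carrier SLC25A13 (71.6 ± 1.63). At the low end, SLC25A45, SLC25A48, SLC25A52 and SLC25A27 lay between 2.34 and 2.69. Of the 41 pairs of neighbours in this order, 24 differed by less than their combined SD, among them SLC25A11 with SLC25A1 and each step from SLC25A45 to SLC25A27, whereas SLC25A5, SLC25A3, SLC25A6 and SLC25A17 each stood apart from the next gene.

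**Figure D1:**
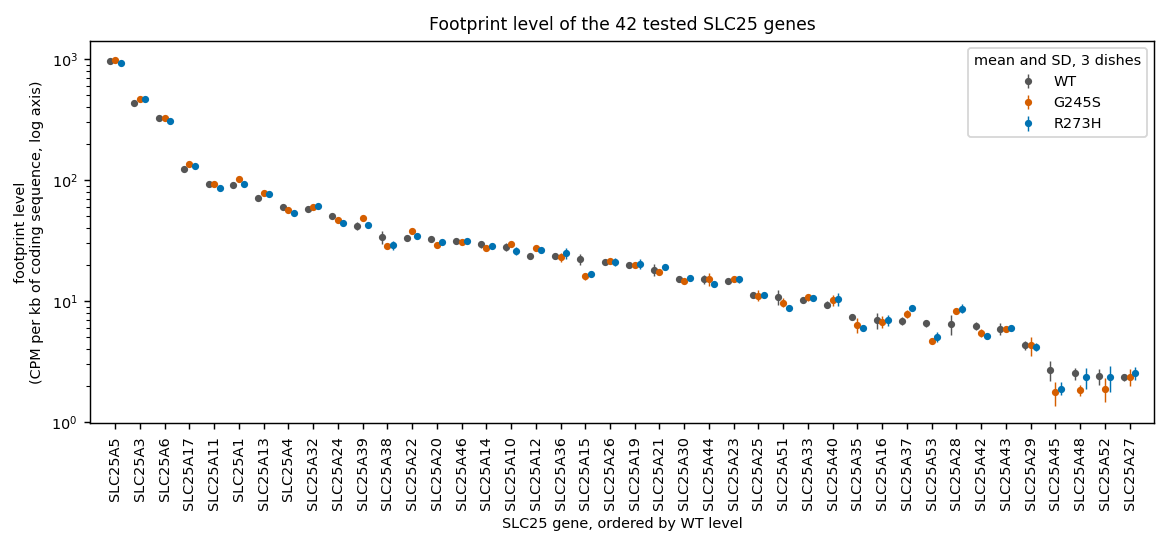
Footprint level (CPM per kb of coding sequence, log axis) of the 42 tested SLC25 genes in order of their WT mean. Points are means and bars SDs of 3 dishes in WT, G245S and R273H; the top 3 genes, SLC25A5, SLC25A3 and SLC25A6, lie above 300 in every group, and the 3 groups of a gene lie close together beside the 413-fold range between genes.

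Another 6 members, SLC25A2, SLC25A18, SLC25A31, SLC25A34, SLC25A41 and SLC25A47, had at most 2 counts in any library and were not tested. A total of 3 counts, the limit that a count of 0 allows, corresponds to 0.122 to 0.16 CPM in these libraries. SLC25A31 is an ADP/ATP carrier and SLC25A41 an ATP-Mg/phosphate carrier best known from testis, and SLC25A18 is the second mitochondrial glutamate carrier.

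The 3 abundant ADP/ATP carriers have coding sequences of the same length, 897 nt, and are printed here because footprints are short and can be assigned to one paralog only where the sequences differ. Over the whole coding sequence SLC25A5 was 78.8% identical to SLC25A6 and 77.3% identical to SLC25A4, and SLC25A4 was 77.9% identical to SLC25A6. Stretches of 120 bases that begin at a codon boundary were compared between SLC25A5 and SLC25A6. The one shown, at positions 16 to 135 from the start codon, was the first with the fewest differences. It covers the first copy of the carrier signature of the family, which a search of the translated sequence for proline, any residue, an acidic residue, any pair of residues and a basic residue placed at base 82. Capitals mark bases that differ from SLC25A5, 16 in SLC25A6 and 20 in SLC25A4.
SLC25A5: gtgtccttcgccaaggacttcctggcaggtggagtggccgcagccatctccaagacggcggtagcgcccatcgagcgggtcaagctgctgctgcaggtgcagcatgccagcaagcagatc
SLC25A6: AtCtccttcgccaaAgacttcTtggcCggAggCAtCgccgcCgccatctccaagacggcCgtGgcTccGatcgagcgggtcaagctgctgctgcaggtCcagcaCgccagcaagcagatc
SLC25A4: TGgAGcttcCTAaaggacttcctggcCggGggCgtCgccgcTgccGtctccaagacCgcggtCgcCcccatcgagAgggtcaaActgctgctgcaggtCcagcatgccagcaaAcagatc
In GRCh38 (GENCODE v44) the stretch of SLC25A5 lies on the plus strand in coding exon 1 at chrX:119468531-119468626 and exon 2 at chrX:119469661-119469684. That of SLC25A6 lies on the minus strand at chrX:1391899-1391994 (exon 1) and chrX:1389704-1389727 (exon 2), and that of SLC25A4 on the plus strand at chr4:185143388-185143483 (exon 1) and chr4:185144764-185144787 (exon 2). No window of 30 bases was shared among the coding sequences of the 3 genes. SLC25A5 did share 38.5% of its windows with pseudogenes such as SLC25A5P3, and SLC25A6 6.11% with SLC25A6P2, while SLC25A4 shared none.

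A different case is SLC25A51, a carrier of NAD, and its intronless relative SLC25A52, which were 97.7% identical over 894 nt with 21 differing bases. They share the following 120 bases, positions 208 to 327 of the coding sequence, with 0 differences, printed to show what a footprint from either gene would look like.
SLC25A51 and SLC25A52: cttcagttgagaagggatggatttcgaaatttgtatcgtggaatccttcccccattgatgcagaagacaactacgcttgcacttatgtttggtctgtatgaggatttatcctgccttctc
The stretch lies on the minus strand of both, at chr9:37888224-37888343 (exon 3 of SLC25A51) and chr18:31760335-31760454 (the single exon of SLC25A52). Of the 30-base windows of SLC25A51, 49.8% occur in SLC25A52 and 71.6% in some other gene, so the division of footprints between them rests on the estimate of the counting step. The same holds for SLC25A10, SLC25A32 and SLC25A33, whose windows were shared at 87.5%, 83.2% and 80.7% with 1 other gene model each (overlapping it on the same strand for SLC25A10 and SLC25A32), and in part for SLC25A38 (29.5%), SLC25A53 (24.9%) and SLC25A15 (12.1%), which have pseudogenes. In 31 of the 48 members no window was shared with another gene.

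The first question was whether footprints of the carriers differed between cells with mutant and with wild-type p53. Genes were tested with edgeR's quasi-likelihood test over all 19820 genes that passed the filter, and calls are those with a p under 0.05 after Benjamini-Hochberg adjustment. Changes are given as log2 fold changes ± SE. In G245S against WT, 14 of 42 carriers were called, 8 higher and 6 lower, which is 33.3% against 24.7% of all genes tested (12.6% higher and 12.1% lower). In R273H against WT, 13 of 42 were called, 5 higher and 8 lower, or 31.0% against 28.8% of all genes (14.2% higher and 14.6% lower). Well-counted genes are called more often: among genes with a mean of at least 100 counts, 13 of 37 carriers (35.1%) were called in each mutant, against 33.1% of all such genes for G245S and 37.6% for R273H. The median log2 fold change of the carriers was -0.01 in G245S and 0.01 in R273H, and that of all genes was 0.00 in both. The median size of the change without its sign was 0.10 and 0.09 for the carriers and 0.15 for all genes in both mutants. These sizes were not matched on counts: 37 of 42 carriers averaged at least 100 counts, beside 12653 of 19820 genes. They are therefore not read as a smaller change of the carriers. Among well-counted genes the share of carriers called was thus close to the background in both mutants, and the calls went in both directions. With edgeR's glmTreat, which asks for a fold change beyond 1.2, no carrier was called. Of all 19820 genes it called 547 in G245S and 693 in R273H. DESeq2 called 8 carriers in G245S and 7 in R273H, beside 3049 and 3571 of the 18366 genes to which it gave an adjusted p. Fewer genes were thus called over the whole table as well. Both mutants are compared with the same WT dishes, so their fold changes are not independent.

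**Figure D2:**
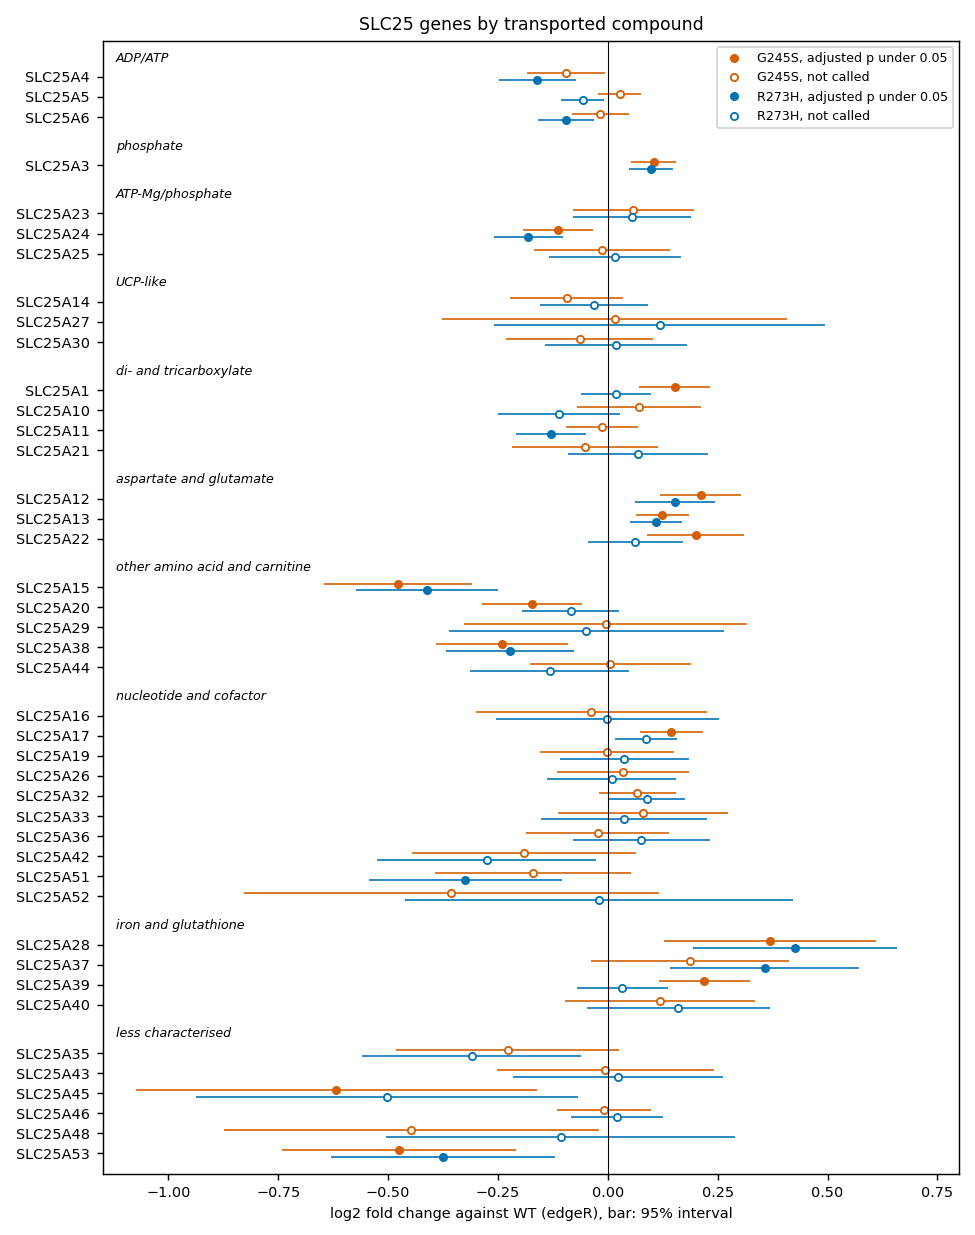
Log2 fold change against WT of the 42 tested SLC25 genes, ordered by transported compound. Points are edgeR estimates, filled where the adjusted p was under 0.05, and bars are 95% intervals; the row of SLC25A6 is that of its X copy. The glutamate and iron carriers lie to the right of 0 and SLC25A15, SLC25A38, SLC25A45 and SLC25A53 to the left in both mutants.

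All 3 tested aspartate and glutamate carriers were called higher in G245S and 2 of the 3 in R273H, and none was called lower. Of all genes tested, 12.6% were called higher in G245S and 14.2% in R273H. The classes are small, and lists were chosen with earlier results known, so class counts are not read as traits, here or below. SLC25A12 (aralar), a calcium-regulated exchanger of aspartate and glutamate, had 47.0, 49.5 and 47.8 CPM in the WT dishes, 54.5, 53.7 and 58.6 CPM in G245S and 52.9, 54.2 and 53.3 CPM in R273H. Every mutant dish was above every WT dish. The log2 fold change was 0.21 ± 0.045, at an adjusted p of 0.000802, in G245S and 0.15 ± 0.0441, at an adjusted p of 0.00936, in R273H. Its close relative SLC25A13 (citrin) rose by 0.12 (adjusted p = 0.00239) and 0.11 (adjusted p = 0.00503), again without overlap of the dishes. SLC25A22, which carries glutamate with protons, gave 31.7, 33.4 and 31.7 CPM in WT, 37.8, 38.5 and 35.1 CPM in G245S and 32.6, 34.8 and 33.7 CPM in R273H. Only the G245S dishes stood clear of WT, with a log2 fold change of 0.20 ± 0.0537, at an adjusted p of 0.00644, and the value for R273H was 0.06 (adjusted p = 0.415). The direct difference between the mutants in SLC25A22 did not pass the test, at 0.14 (95% interval 0.03 to 0.24, adjusted p = 0.164).

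Among the iron and glutathione carriers, 2 of 4 were called higher in each mutant and none was called lower. The shares of all genes called higher were 12.6% in G245S and 14.2% in R273H. SLC25A28 (mitoferrin-2), which brings iron into mitochondria, was counted at 8.54, 6.45 and 6.12 CPM in the WT dishes, 9.65, 8.95 and 8.78 CPM in G245S and 9.80, 10.0 and 8.58 CPM in R273H. The lowest mutant dishes were barely above the highest WT dish. Its log2 fold change was 0.37 ± 0.118, at an adjusted p of 0.0211, in G245S and 0.43 ± 0.113, at an adjusted p of 0.00522, in R273H, and the G245S call was lost when WT dish 2, WT dish 3 or G245S dish 1 was left out or DESeq2 was used. SLC25A37 (mitoferrin-1), best known from developing red cells, had 7.54, 6.92 and 6.44 CPM in WT, 8.29, 8.34 and 7.24 CPM in G245S and 9.47, 8.82 and 8.496 CPM in R273H. The R273H dishes lay above all others and the G245S dishes overlapped WT. Its change in R273H of 0.36 ± 0.105 was called (adjusted p = 0.0106), without WT dish 3 or R273H dish 1 or with DESeq2 it was not, and the change in G245S was 0.19 (adjusted p = 0.232).

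SLC25A39, a carrier needed for glutathione in the matrix, was the 1 member of 42 called between the mutants (2.38%), where 2.59% of all genes were called. The WT dishes held 48.7, 41.95 and 44.7 CPM, the G245S dishes 51.2, 54.9 and 51.8 CPM and the R273H dishes 45.7, 47.7 and 45.2 CPM. Each G245S dish was above each dish of the other groups, and R273H overlapped WT. The log2 fold change was 0.22 ± 0.0509, at an adjusted p of 0.00181, in G245S against WT, 0.03 ± 0.0504, at an adjusted p of 0.676, in R273H against WT and 0.19 ± 0.0491, at an adjusted p of 0.0349, in G245S against R273H. Leaving out any G245S or R273H dish but G245S dish 3 ended the call between the mutants, as did DESeq2 and the removal of the length and GC trend, but no single dish ended the call against WT. The related SLC25A40 gave 0.12 (adjusted p = 0.453) and 0.16 (adjusted p = 0.254) against WT.

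Called members of the other amino acid and carnitine class were lower, 3 of 5 tested in G245S and 2 of 5 in R273H. None was called higher. Of all genes, 12.1% were called lower in G245S and 14.6% in R273H. SLC25A29 and SLC25A44 were not called. They had log2 fold changes of -0.005 and 0.006 in G245S (adjusted p = 0.988 and 0.973) and -0.05 and -0.13 in R273H (adjusted p = 0.849 and 0.283). SLC25A15 (ORC1), which exchanges ornithine and citrulline for the urea cycle, showed the clearest fall of the family. Its footprints amounted to 19.9, 22.3 and 18.2 CPM in WT, 15.7, 13.9 and 13.9 CPM in G245S and 15.5, 15.8 and 14.1 CPM in R273H. No mutant dish reached the lowest WT dish. Log2 fold changes were -0.48 ± 0.0818, at an adjusted p of 6.23e-05, in G245S, and -0.41 ± 0.0785, at an adjusted p of 0.0002, in R273H. Footprints fell by 28.2% in G245S and fell by 24.8% in R273H. Each call held without any 1 dish and with DESeq2. SLC25A38, a glycine carrier that supplies heme synthesis, had 34.0, 31.3 and 26.9 CPM in WT, 26.0, 26.1 and 26.2 CPM in G245S and 28.1, 27.0 and 24.0 CPM in R273H. The WT dishes spread more than the mutants, and 2 R273H dishes lay above the lowest WT dish. Its changes of -0.24 ± 0.0728, at an adjusted p of 0.0171, and -0.22 ± 0.0704, at an adjusted p of 0.0192, were lost when WT dish 1 or WT dish 2 was left out, in G245S also without any 1 of its own dishes, in R273H also without R273H dish 3 or with the length and GC trend removed, and in both with DESeq2. SLC25A20, the carnitine-acylcarnitine carrier of fatty acid oxidation, fell in G245S (log2 fold change -0.17, adjusted p = 0.0232) and had -0.08 (adjusted p = 0.257) in R273H. The SLC25A20 call was lost without WT dish 2, G245S dish 1 or G245S dish 3, without the filter on low counts, with the trend removed and with DESeq2.

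**Figure D3:**
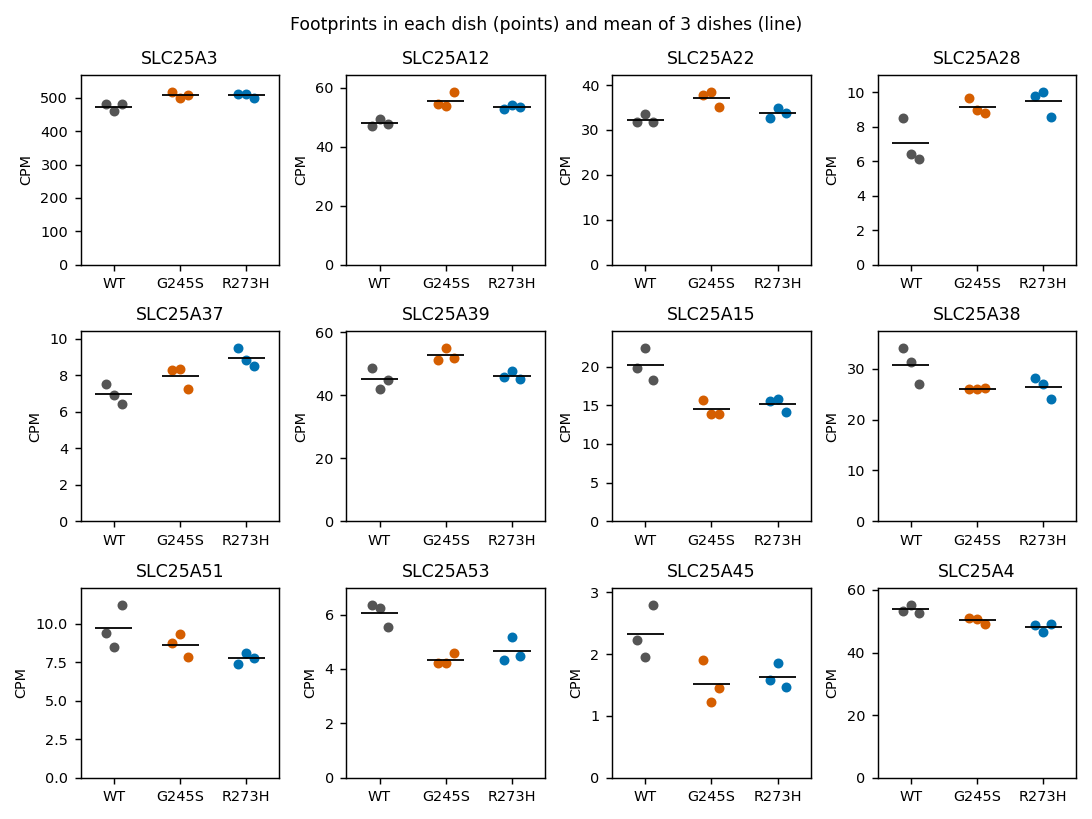
Footprints in CPM (axes start at 0) of 12 named carriers in each dish of WT, G245S and R273H. Points are dishes and lines are means of 3; SLC25A15 and SLC25A53 are lower in all 6 mutant dishes than in any WT dish, SLC25A12 and SLC25A28 are higher, and SLC25A39 is higher in the 3 G245S dishes than in all others.

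The carriers that serve oxidative phosphorylation did not move together. SLC25A3, which imports phosphate for ATP synthesis and also copper, had 480.4, 459 and 482 CPM in WT, 518, 501 and 509 CPM in G245S and 511, 511 and 500.1 CPM in R273H. All 6 mutant dishes lay above WT, and the log2 fold changes of 0.10 ± 0.0246, at an adjusted p of 0.00225, and 0.10 ± 0.0244, at an adjusted p of 0.00284, correspond to 7.47% and 7.07% more footprints. SLC25A4 had 53.4, 55.2 and 52.7 CPM in WT, 51.1, 50.8 and 49.2 CPM in G245S and 48.8, 46.5 and 49.0 CPM in R273H. The 3 groups did not overlap, and the decrease was called in R273H (-0.16 ± 0.0428, adjusted p = 0.00502) but not in G245S (-0.10 ± 0.0437, adjusted p = 0.115). The direct difference between the mutants in SLC25A4 was 0.07 (95% interval -0.02 to 0.15, adjusted p = 0.486).

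SLC25A5, the most abundant member, had 859, 867 and 873 CPM in WT, 915, 876 and 859 CPM in G245S and 832, 820.5 and 846 CPM in R273H. R273H was lowest and the G245S dishes overlapped WT. No contrast passed the test. The change was 0.03 ± 0.0238 for G245S (adjusted p = 0.445), -0.06 ± 0.0237 for R273H (adjusted p = 0.0707) and 0.08 ± 0.0237 between the mutants (adjusted p = 0.0504), and the last was called with only the 6 libraries compared, with the SLC25A6 rows summed, with DESeq2, without WT dish 3 (adjusted p = 0.0244) and without G245S dish 3 (adjusted p = 0.0156). For SLC25A6 the rows summed to 296, 295 and 290.1 CPM in WT, 296, 292 and 284 CPM in G245S and 279, 279 and 273.4 CPM in R273H. R273H was below both other groups, with a log2 fold change of -0.08 against WT for the summed rows (adjusted p = 0.0124). Tested apart, the X row was called (-0.10 ± 0.0309, adjusted p = 0.0198) and the Y row, which has the same sequence and about as many reads, was not (-0.07 ± 0.0302, adjusted p = 0.0731). Without WT dish 1, R273H dish 2 or R273H dish 3 the X row was not called, nor after removal of the length and GC trend, with upper-quartile scaling, without the filter on low counts or with DESeq2. The summed rows were not refitted in these ways.

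The ATP-Mg/phosphate carrier SLC25A24, a calcium-regulated carrier that changes the adenine nucleotide pool of the matrix, fell in both mutants, with log2 fold changes of -0.11 ± 0.0389, at an adjusted p of 0.0336, in G245S and -0.18 ± 0.0382, at an adjusted p of 0.000595, in R273H. The G245S call was lost without WT dish 1, WT dish 2, G245S dish 1 or G245S dish 2, with upper-quartile scaling, without the filter on low counts and with DESeq2. Its relatives SLC25A23 and SLC25A25 had values between -0.01 and 0.06 and were not called. None of the UCP-like carriers SLC25A14, SLC25A27 and SLC25A30 was called, with changes between -0.09 and 0.12.

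Of the di- and tricarboxylate carriers, SLC25A1, which exports citrate for lipid synthesis, rose in G245S (0.15 ± 0.0393, adjusted p = 0.00473) and had 0.02 (adjusted p = 0.761) in R273H. SLC25A11, which exchanges oxoglutarate and malate, fell in R273H (-0.13 ± 0.0392, adjusted p = 0.0128) and had -0.01 (adjusted p = 0.854) in G245S. The call for SLC25A11 was lost without WT dish 1 or WT dish 2, with the length and GC trend removed and with DESeq2. In direct comparison of the mutants neither passed, at 0.13 (95% interval 0.05 to 0.21, adjusted p = 0.0583) for SLC25A1 and 0.12 (95% interval 0.04 to 0.20, adjusted p = 0.117) for SLC25A11. Without G245S dish 3 both were called, at 0.17 (adjusted p = 0.0209) and 0.16 (adjusted p = 0.0203), and SLC25A1 was also called without WT dish 3 (adjusted p = 0.0296), without the filter on low counts and with only the 6 libraries compared. The dicarboxylate carrier SLC25A10 and the oxodicarboxylate carrier SLC25A21 were not called.

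In the class of nucleotide and cofactor carriers, 1 of 10 rose in G245S and 1 fell in R273H. Of all genes, 12.6% were called higher in G245S and 14.6% lower in R273H. SLC25A17, a peroxisomal carrier of CoA and other cofactors, rose in G245S (0.14 ± 0.0351, adjusted p = 0.00276) and had 0.09 (adjusted p = 0.0586) in R273H. SLC25A51 was at 9.43, 8.51 and 11.2 CPM in WT, 8.78, 9.36 and 7.85 CPM in G245S and 7.40, 8.13 and 7.76 CPM in R273H. The R273H dishes were below all WT dishes, and the G245S dishes overlapped both. Its change in R273H was -0.32 ± 0.107, at an adjusted p of 0.0229, and in G245S -0.17 (adjusted p = 0.277), and the R273H call was lost without WT dish 3, R273H dish 1 or R273H dish 3 and with DESeq2. SLC25A52, which shares much of its sequence, had -0.02 (adjusted p = 0.958) in R273H and -0.36 (adjusted p = 0.283) in G245S. The remaining 7 members of the class, most of which carry pyrimidine nucleotides, thiamine pyrophosphate, S-adenosylmethionine, folate or CoA, had changes between -0.28 and 0.09.

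Among 6 tested members with less defined substrates, 2 fell in G245S and 1 in R273H. The shares of all genes called lower were 12.1% in G245S and 14.6% in R273H. SLC25A53 was measured at 6.35, 6.23 and 5.54 CPM in WT, 4.23, 4.22 and 4.58 CPM in G245S and 4.31, 5.18 and 4.49 CPM in R273H. All mutant dishes were below all WT dishes. Its log2 fold change was -0.48 ± 0.13, at an adjusted p of 0.0076, in G245S and -0.38 ± 0.125, at an adjusted p of 0.0236, in R273H, the latter lost without WT dish 1, WT dish 2, R273H dish 1 or R273H dish 3 and both lost with DESeq2. SLC25A45, with a mean of only 38.2 counts per library, had 2.23, 1.95 and 2.80 CPM in WT, 1.90, 1.22 and 1.45 CPM in G245S and 1.59, 1.86 and 1.47 CPM in R273H. The mutant dishes lay below the WT dishes, by a gap smaller than the spread within WT. The change of -0.62 ± 0.222, at an adjusted p of 0.0412, was called in G245S, but not without WT dish 1, WT dish 3, G245S dish 2 or G245S dish 3, without the filter on low counts or with DESeq2, and that of -0.50 in R273H was not called (adjusted p = 0.0761). SLC25A46, an outer-membrane member linked to mitochondrial shape, had -0.01 and 0.02.

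In all, 8 genes were called in both mutants, SLC25A3, SLC25A12, SLC25A13 and SLC25A28 higher and SLC25A15, SLC25A24, SLC25A38 and SLC25A53 lower. Another 6 were called in G245S alone, 5 in R273H alone and 23 in neither. These sets do not show that the mutants differ, since in the direct comparison 1 carrier passed, while 7 of the 43 rows had an unadjusted p under 0.05. How many of all genes fall in each set, or have an unadjusted p under 0.05, was not counted. The overlap between the mutants is therefore not read as a trait of the carriers.

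Coding length varied with the footprint counts across the whole table, and differently by group. Across 10886 genes, Spearman's rho between coding length and the deviation of a gene's log2 CPM from its mean over libraries was -0.177 to -0.14 in WT, -0.0115 to 0.115 in G245S and 0.139 to 0.195 in R273H. For GC content the same rho was -0.185 to 0.26 in WT, -0.184 to 0.345 in G245S and -0.423 to -0.138 in R273H. The carriers are short genes, with a median coding length of 945 nt against 1401 nt for genes with at least 100 counts. The longest are SLC25A12 and SLC25A13 at 2037 and 2028 nt, which carry an additional calcium-binding domain. The ATP-Mg/phosphate carriers SLC25A25, SLC25A24 and SLC25A23 follow at 1548, 1434 and 1407 nt. Within the 42 carriers the log2 fold change had a rho with coding length of 0.48 in G245S and 0.554 in R273H, a description over genes that share libraries. With the trend on length and GC content removed from each library, rho was 0.459 and 0.502. Then 14 members were called in G245S (9 higher, 5 lower) and 12 in R273H (7 higher, 5 lower, against 5 and 8 as counted). Over the whole table, 5428 and 5938 of 19820 genes were called with the trend removed, against 4900 and 5707 as counted. SLC25A12 then had 0.20 (adjusted p = 0.000232) and 0.12 (adjusted p = 0.0185), and SLC25A15 had -0.44 (adjusted p = 6.66e-05) and -0.38 (adjusted p = 0.00028). SLC25A20 in G245S (adjusted p = 0.0553) and SLC25A11, SLC25A38 and SLC25A6 in R273H (adjusted p = 0.0685, 0.0526 and 0.379) lost their calls. SLC25A5 in G245S (0.06, adjusted p = 0.0218) and SLC25A1 and SLC25A17 in R273H (0.08 and 0.09, adjusted p = 0.0466 and 0.0187) gained one.

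**Figure D4:**
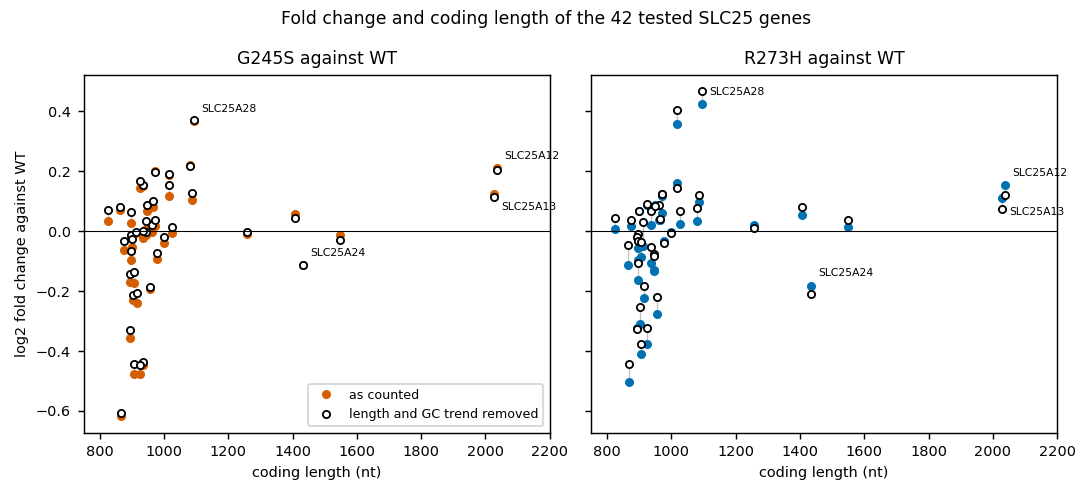
Log2 fold change against coding length (nt) for the 42 tested carriers in each mutant, as counted (filled) and after removal of the length and GC trend of all genes (open), with a line joining both values of a gene. In R273H, SLC25A6 moves from -0.10 to -0.03 and SLC25A1 from 0.02 to 0.08, and the long SLC25A12 and SLC25A13 stay above 0 in both mutants.

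The search for the carrier signature in the translated sequences gave 3 matches in 27 of 48 members, 2 in 9, 1 in 5, 4 in 3 and none in 4 (SLC25A46, SLC25A51, SLC25A52 and SLC25A53). The proteins span 274 to 678 residues, and 38 of 48 lie between 250 and 350 residues. The member with the clearest fall, SLC25A15 (chr13:40789412-40812460), and the members that rose in both mutants, SLC25A3 (chr12:98593591-98606379), SLC25A12 (chr2:171783405-171999859), SLC25A13 (chr7:96120220-96322147) and SLC25A28 (chr10:99610519-99622793), lie on separate chromosomes, and the 48 genes are spread over 19 chromosomes in GRCh38.

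Other transport proteins of the mitochondrial membranes were read from a list of 26 genes, 24 of them tested. In G245S 8 rose and 1 fell, and in R273H 9 rose and 3 fell, with median log2 fold changes of 0.05 and 0.03 against 0.00 for all genes. The calls were 9 and 12 of the 24, beside 24.7% and 28.8% of all genes called and 33.1% and 37.6% of those averaging 100 counts or more. The outer-membrane channels VDAC1 and VDAC2 rose in both mutants (0.15 and 0.16 in G245S, 0.12 and 0.15 in R273H), while VDAC3 had -0.02 and 0.01. SFXN4 had the largest rise of the list (0.28 and 0.29, with adjusted p = 2.97e-05 for G245S and 8.87e-06 for R273H). MTCH2, a relative of the carriers that inserts proteins into the outer membrane, rose as well (0.19 and 0.14). UCP2, an uncoupling protein of the same superfamily, fell in G245S (-0.14, adjusted p = 0.0155), and the other members of that branch, UCP1 and UCP3, were at or below 0.129 CPM. The pyruvate carrier subunit MPC2, the uniporter regulator SMDT1 and SFXN5 fell in R273H.

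Of 10 genes of the import path for carriers, 4 rose and 1 fell in G245S, and 2 rose and 1 fell in R273H, with medians of 0.04 and 0.03. The 3 of 10 called in R273H lie near the 28.8% of all genes called, and the 5 of 10 in G245S stand beside 24.7% of all genes and 33.1% of those averaging 100 counts or more. TOMM70, the receptor that recognises carrier precursors, rose by 0.15 (adjusted p = 0.00093) and 0.12 (adjusted p = 0.00725), and TOMM20 by 0.08 in both (adjusted p = 0.0328 and 0.0272). The channel TOMM40 and the receptor TOMM22 rose in G245S alone (0.18 and 0.11) and were higher in G245S than in R273H (0.13, adjusted p = 0.0313, and 0.17, adjusted p = 0.0115). The small chaperone TIMM9 fell in G245S and TIMM10 in R273H (-0.12 in each, adjusted p = 0.0366 and 0.0169). TIMM22, the channel that inserts carriers, had 0.05 and 0.02 and was not called.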

How the data were processed

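The deposited table holds expected counts, estimated footprints per gene that the authors made from reads trimmed with Trim Galore, filtered for rRNA with SortMeRNA and aligned to GRCh38 with STAR. The counting tool, annotation, strand setting and treatment of multi-mapping reads are not given in the sources used here, and 61.5% to 63.7% of nonzero values per library were not whole. Counts were rounded and fitted for all 9 libraries with edgeR 4.0.16 in R 4.3.3 (TMM scaling, filterByExpr, robust glmQLFit, glmQLFTest, two-sided, group as the only term, 6 residual degrees of freedom). A call needs a Benjamini-Hochberg adjusted p under 0.05 over 19820 genes. CPM values use the TMM-scaled library size. The biological coefficient of variation was 2.58%. P-values measure the spread between dishes of 1 pool. Coding length, GC content, sequences and coordinates come from GENCODE v44. Members and lists were chosen with earlier results of these data known. Values in each dish are given for members called with a log2 fold change of at least 0.2 in size and for SLC25A3 to SLC25A6, and marker, transport and import genes come from written lists. Scripts were tested on simulated counts. Alternatives were other scalings, no filter, DESeq2 1.42.0, a block for dish number, a trend correction (natural spline with 4 degrees of freedom), a minimum fold of 1.2, only the 6 libraries compared, and leaving out each dish. Summing both SLC25A6 rows was added after seeing the data.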

Additional observations from a re-analysis of the deposited data

Results flagged for a closer look

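SLC25A39 differed between the mutants: the direct comparison of G245S with R273H gave a log2 fold change of 0.19 (edgeR, adjusted p = 0.0349), with 3 of 3 G245S dishes above all R273H dishes. Over the alternatives the value ran from 0.139 to 0.21 and the adjusted p from 0.0126 to 1.0, and 8 of 18 alternatives ended the call.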

How the results depend on the processing

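Of 28 calls of single rows against 18 alternatives each, none of 504 values changed direction and 93 lost significance. The minimum fold of 1.2 (glmTreat) called 0 members in all 3 comparisons, beside 547, 693 and 3 genes of the whole table. In the quasi-likelihood test, 16, 20 and 7 member rows had an unadjusted p under 0.05. How many of all genes had such a p was not counted. DESeq2 called 8 members in G245S (7 higher) and 7 in R273H (4 higher), beside 3049 and 3571 of 18366 genes. Apart from the minimum fold, 15 calls held under every alternative: SLC25A1, SLC25A3, SLC25A12, SLC25A13, SLC25A15, SLC25A17, SLC25A22 and SLC25A39 in G245S, and SLC25A3, SLC25A4, SLC25A12, SLC25A13, SLC25A15, SLC25A24 and SLC25A28 in R273H. Leaving out 1 dish gave 10 to 14 members in G245S, 9 to 15 in R273H and 0 to 4 between the mutants, where the 4, without G245S dish 3, were SLC25A1, SLC25A5, SLC25A11 and SLC25A39. Over the whole table the same fits called 3899 to 4850 genes in G245S, 4526 to 5829 in R273H and 162 to 712 between the mutants. Between the mutants, the count of 1 became 2 without the filter on low counts (SLC25A1 added), 3 with only the 6 libraries compared (SLC25A1 and SLC25A5 added), 2 with the SLC25A6 rows summed (SLC25A5 added), 0 with the length and GC trend removed, and DESeq2 called SLC25A5 instead of SLC25A39. Libraries of the same number correlated at 0.0419 to 0.228, 4 of 9 pairs above 0.1, and 17 of 18 comparisons were highest with the own number, a hint from the data and not the design, so the numbers were not taken to pair the dishes. A replicate block on them gave 14 members in G245S, 17 in R273H and 4 between the mutants (SLC25A1, SLC25A5, SLC25A11 and SLC25A39, adjusted p = 0.00483, 0.007, 0.0215 and 0.0126). Over the whole table the block called 5779, 6547 and 1262 of 19820 genes. The members' median moved by more than its SD of 0.0188 between dishes in several settings. In R273H, from 0.00853, it moved with the trend removed (0.0296) and without WT dish 1, 2 or 3 (-0.0117, -0.0119 and -0.0138). It also moved in G245S without G245S dish 3 (0.0128) and between the mutants without R273H dish 3 (-0.0226). With 1 dish left out it ran from -0.0175 to 0.0128 in G245S, -0.0138 to 0.0162 in R273H and -0.0226 to 0.0186 between the mutants. The cause of these shifts was not tested. Depth limits the members with few counts. The limit of 3 counts covers counting error only, whereas the 95% intervals of the fit also cover the spread between dishes of 1 pool.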
